A study of Mus musculus with 5 samples.

Results

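Ribosomes are assembled in the nucleolus, and the genes described here encode proteins of that pathway. They comprise nucleolar proteins, protein parts of small nucleolar ribonucleoproteins (snoRNPs) and subunits of RNA polymerase I. The list holds 40 genes, chosen with earlier results of these data known, and 37 of them had at least 1 probe set annotated to that gene alone. Where a gene had several such probe sets, the brightest on average over the 5 arrays was used. They were tested among 12394 genes measured in ID8 cells. This cell line came from mouse ovarian surface epithelium, grows as a tumour in the peritoneum and gives rise to ascites, a fluid that fills the abdomen. The ascites group (2 arrays, replicates 2 and 3) was grown in DMEM with 10% ascites fluid taken from mice that carried ID8 tumours, for 7 days according to the design text. The FBS group (3 arrays, replicates 1, 2 and 3) was parental ID8 cells kept in DMEM with 10% fetal bovine serum (FBS). No culture time is stated for the FBS arrays in particular. The labels do not state whether the ascites medium also held serum, whether cells were removed from the fluid or whether replicates were separate cultures. The p values therefore rest on array-to-array spread alone, and that spread may be technical.

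RNA polymerase I copies the ribosomal DNA into a long precursor RNA. SnoRNPs of the box C/D and H/ACA classes guide its methylation and pseudouridylation, and large assemblies fold and cut it while ribosomal proteins join, giving the small and the large ribosomal subunit. In growing and tumour cells this pathway is known to be driven by MYC and by growth factor signals, and large nucleoli are a long known feature of many cancers. Values below are log2 array signals, and changes are ascites minus FBS on that scale, so a change of 1 is a doubling. A gene is said to have risen or fallen where limma's p, adjusted by the Benjamini-Hochberg method over all 12394 genes, was below 0.05.

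The array of FBS replicate 3 differed from the rest of its group. Its signals differed from those of FBS replicates 1 and 2 by an SD of 0.427 over all genes, whereas replicates 1 and 2 differed from each other by 0.117 and the ascites arrays by 0.239. The epithelial and ovarian surface markers Krt8, Krt18, Krt19, Wt1 and Msln had signals between 10.83 and 13.53 on the 5 arrays. Krt18 and Krt19 fell in ascites (limma adjusted p = 0.0361 and 0.0428). Krt8 and Wt1 also read lower on both ascites arrays than on all FBS arrays, without passing (limma adjusted p = 0.0807 and 0.095). The remaining marker of that list, Krt7, read 5.37 and 5.12 in ascites, against 8, 8.08 and 5.66 in FBS replicates 1, 2 and 3, so FBS replicate 3 lay with the ascites arrays for that gene. For Krt8, Krt18 and Krt19 it lay nearer to the other FBS arrays, at 13.13, 13.15 and 13.15, and for Msln it was the lowest of all arrays, at 11.46. Its Wt1 signal of 11.83 lay between those of the other FBS arrays (12.75 and 12.72) and those of ascites (11.17 and 10.83). Of 21 markers of leukocytes, endothelium and red cells, 17 were measured, and they read between 3.26 and 6.88. Their summed log2 signal was 86.34 to 86.9 in ascites and 85.6 to 86.53 in FBS, and 0 rose and 0 fell. The part of these marker differences in the results below was not tested.

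All 37 members had a higher mean signal in ascites than in FBS, with a median change of 0.60 and a range of 0.02 to 1.31. Over all genes, 49.7% had a higher mean in ascites, and the median change was 0. However, 2 members rose, Nop14 and Npm1, and 0 fell. That is 5.41% of the members, beside 2.69% of all genes that rose and 2.59% that fell, so the number of calls was near the background and was not read as a property of the list. At an unadjusted p below 0.05, 15 members were higher in ascites (40.5%), beside 11.7% of all genes. Both ascites arrays lay above all 3 FBS arrays for 20 members (54.1%), beside 18.6% of all genes. Because the list was chosen with earlier results of these data known, these shares describe it and do not test it. The genes compared with were not matched for signal: 36 of the 37 members were brighter than the median gene (8.098). Array signal does not tell apart a larger share of cells that express a gene from more RNA per cell.

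The distance between the groups depended on which FBS array was taken. Relative to the mean of FBS replicates 1 and 2, the median member lay at 0.71 in ascites replicate 2, at 0.915 in ascites replicate 3 and at 0.7 in FBS replicate 3, where the median over all genes was 0.005, 0 and 0.015. FBS replicate 3 thus read close to ascites replicate 2 on this list. It was above both other FBS arrays for 34 of 37 members, beside 41.7% of all genes. It lay above both ascites arrays for Nhp2, Polr1e, Bysl, Bop1, Gnl2 and Ddx56, between or level with them for 10 members, and below both for 21. Measured against FBS replicate 3 alone, the ascites mean was higher for 27 members, lower for 9 and equal for Rrp9, with a median difference of 0.13. Measured against FBS replicates 1 and 2, both ascites arrays were higher for 36 of 37 members, all but Ubtf, beside 27.8% of all genes.

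**Figure D1:**
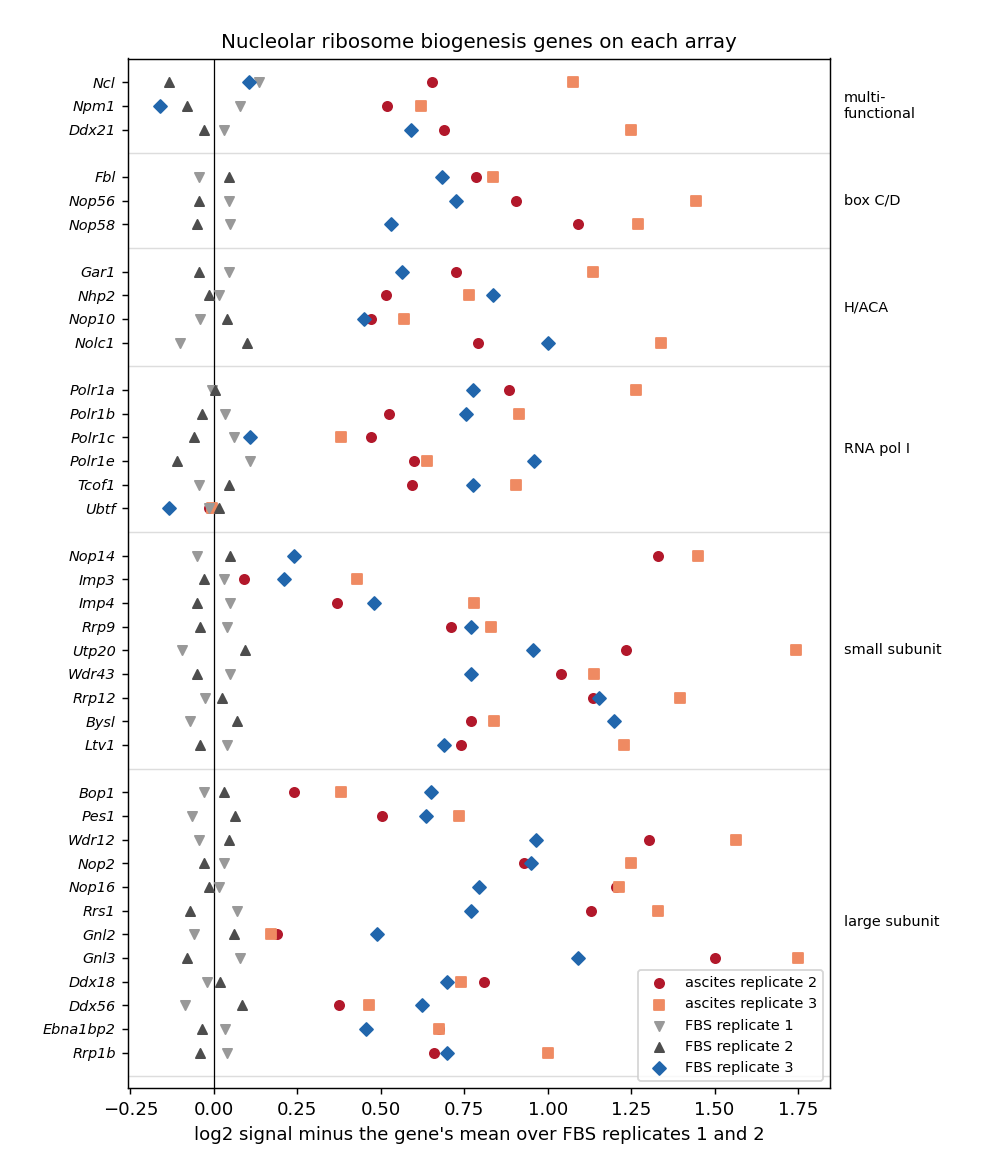
Signal of the 37 measured members on each array, as the log2 difference from the gene's mean over FBS replicates 1 and 2 (horizontal axis), with genes in rows by role. Red circles and orange squares are the ascites arrays, grey triangles FBS replicates 1 and 2, and blue diamonds FBS replicate 3. On the probe sets used, FBS replicate 3 lies near the ascites arrays for most members. It lies near the other FBS arrays for Nop14, Npm1, Ncl and Polr1c, among others.

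Without FBS replicate 3, limma called 24 of 37 members risen (64.9%) and 0 fallen, beside 9.17% of all genes risen and 10.9% fallen, and the median change of the members was 0.81. The FBS spread then came from replicates 1 and 2, the most alike pair of arrays. Leaving out FBS replicate 1, FBS replicate 2, ascites replicate 2 or ascites replicate 3 left 0 of all 12394 genes called by limma, in the members and in every list below, with 5, 5, 5 and 4 members higher at an unadjusted p below 0.05. The median change stayed between 0.49 and 0.67 in those 4 cases. Members were also higher in ascites replicate 3 than in ascites replicate 2 in 33 of 37 cases, by a median of 0.23. Over all genes this held for 5488 of 12394, with a median of 0.

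**Figure D2:**
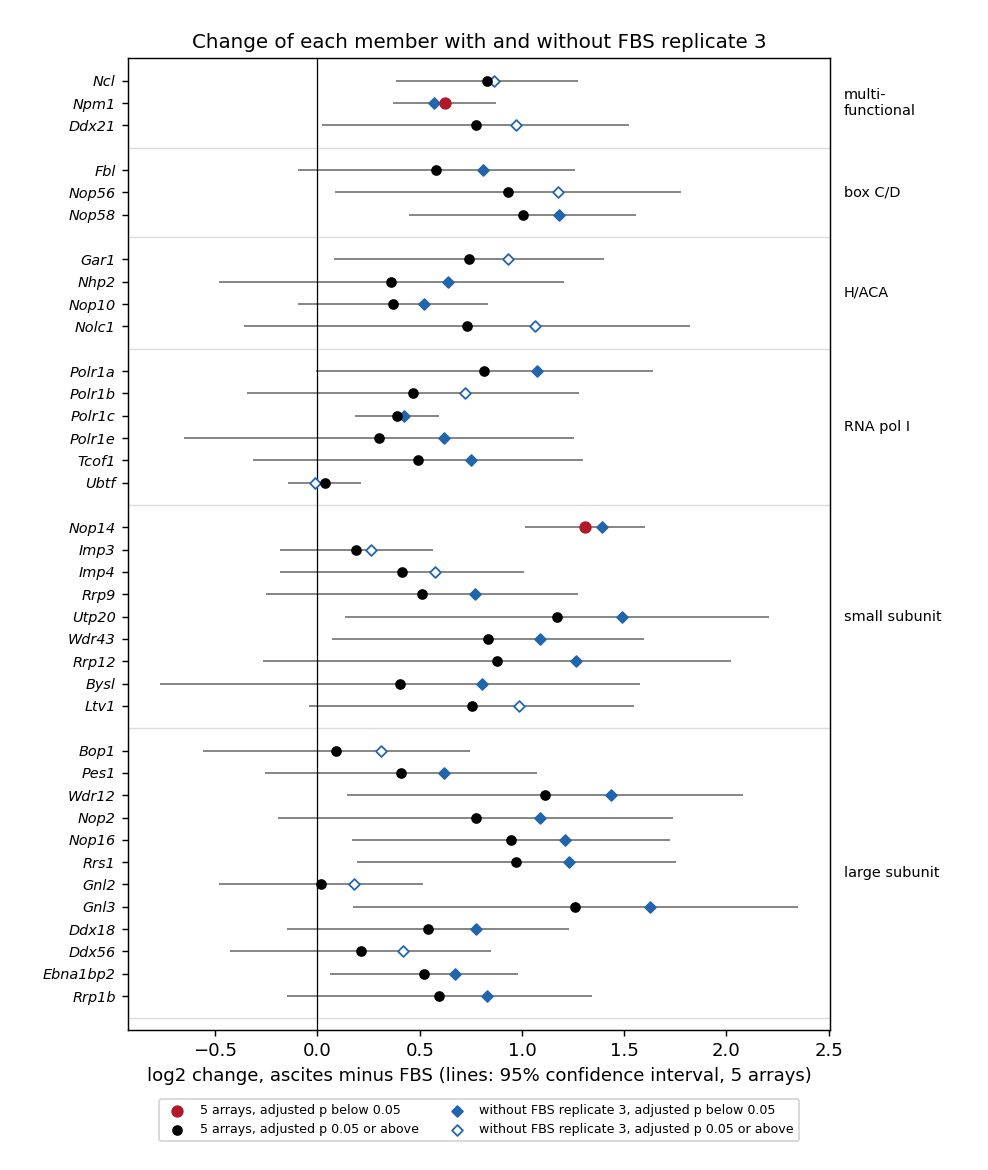
Log2 change of each member, ascites minus FBS, with its 95% confidence interval (grey line) over all 5 arrays, red where the gene rose and black where it did not pass. Diamonds give the change without FBS replicate 3, filled where limma's adjusted p was below 0.05, which held for 24 members.

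The small subunit group held the member with the largest change over all 5 arrays, although Gnl3 (1.62), Utp20 (1.49) and Wdr12 (1.44) lay above it without FBS replicate 3, and Utp20 and Gnl3 did without ascites replicate 2. Nop14, a core protein of the processome that makes the small subunit, read 10.93 and 11.05 in ascites, against 9.55, 9.65 and 9.84 in FBS. The groups were far apart, and FBS replicate 3 lay only 0.24 above the mean of the other FBS arrays. Nop14 was 2.48-fold higher in ascites (change 1.31, SE 0.11, limma adjusted p = 0.0191). Its change stayed between 1.25 and 1.39 whichever array was left out, but its adjusted p was below 0.05 only without FBS replicate 3 (0.00906). It was 0.0998 and 0.127 when ascites replicate 2 or 3 was left out, and 0.139 and 0.146 when FBS replicate 1 or 2 was.

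Utp20, a large scaffold protein of the same pathway, read 10.43 and 10.94 in ascites, against 9.10, 9.29 and 10.15 in FBS. The groups did not overlap, but FBS replicate 3 lay nearer to ascites than to the other FBS arrays (change 1.17, SE 0.38, limma adjusted p = 0.167). Wdr43, which belongs to the part of the processome linked to transcription of ribosomal DNA, read 10.37 and 10.47 in ascites, against 9.38, 9.28 and 10.10 in FBS, and FBS replicate 3 was again the highest FBS array (change 0.83, SE 0.28, adjusted p = 0.177). The early assembly proteins Imp3 and Imp4 differed by 0.19 and 0.41, Rrp9, a protein of the U3 snoRNP, by 0.51, and Ltv1, which acts late in small subunit maturation, by 0.76. Rrp12, known in yeast for export of the subunits, read 9.30 and 9.56 in ascites, against 8.14, 8.19 and 9.32 in FBS, so FBS replicate 3 fell between the ascites arrays. Bysl, needed for late small subunit processing, read 10.48 and 10.55 in ascites, against 9.64, 9.78 and 10.91 in FBS. For Bysl the highest array was FBS replicate 3, and the change of 0.41 had a 95% interval of -0.77 to 1.58. On the other, dimmer probe set of Bysl, FBS replicate 3 read 8.93, below both ascites arrays (9.13 and 9.32). That probe set changed by 0.72 (limma adjusted p over probe sets 0.178). In all, 1 of 9 measured members of this group rose, and 6 did without FBS replicate 3. Of all genes, 2.69% and 9.17% rose in these fits, and the same shares stand beside the counts of every group below.

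Of the abundant multifunctional nucleolar proteins, 1 of 3 rose. Npm1, which encodes the histone and ribosome chaperone nucleophosmin, read 13.97 and 14.07 in ascites, against 13.53, 13.37 and 13.29 in FBS. The groups were separate, and FBS replicate 3 was the lowest array (1.54-fold, change 0.62, SE 0.09, limma adjusted p = 0.0442). The call came from 1 of its 2 probe sets, since the other changed by 0.11 (adjusted p over probe sets 0.44). It was lost, with adjusted p between 0.14 and 0.21, when any array other than FBS replicate 3 was left out. Ncl, nucleolin, an RNA-binding protein of ribosomal RNA synthesis and processing, read 12.84 and 13.26 in ascites, against 12.32, 12.05 and 12.29 in FBS. All FBS arrays lay below both ascites arrays and close to each other, and the difference between the ascites arrays was larger than that among the FBS arrays (change 0.83, SE 0.17, adjusted p = 0.0705). This did not hold for every Ncl probe set. On another, FBS replicate 3 read 10.26, between the ascites arrays at 9.85 and 10.91 (change 0.57). Ddx21, an RNA helicase of ribosomal RNA transcription and processing, read 9.99 and 10.55 in ascites, against 9.33, 9.27 and 9.89 in FBS, and FBS replicate 3 almost reached the lower ascites array (change 0.77, SE 0.28, adjusted p = 0.196).

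The box C/D snoRNP proteins had both ascites arrays above all FBS arrays in all 3 cases, beside 18.6% of all genes, and 0 of 3 passed. Nop58, a core protein of these particles, read 12.64 and 12.82 in ascites, against 11.60, 11.50 and 12.08 in FBS. FBS replicate 3 lay about midway (2-fold, SE 0.21, limma adjusted p = 0.073). Nop56, its partner, read 12.32 and 12.86 in ascites, against 11.46, 11.37 and 12.14 in FBS (change 0.93, SE 0.31, adjusted p = 0.174). Fbl, fibrillarin, the methyltransferase of the box C/D particles, read 12.22 and 12.27 in ascites, against 11.39, 11.48 and 12.12 in FBS, so that FBS replicate 3 came within 0.125 of the ascites mean (change 0.58, SE 0.25, adjusted p = 0.264). Without FBS replicate 3, Nop58 and Fbl rose.

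In the H/ACA group 0 of 4 measured members passed, and 2 did without FBS replicate 3. Gar1, a core protein of the pseudouridylation particles, read 11.72 and 12.13 in ascites, against 11.04, 10.95 and 11.56 in FBS (change 0.74, SE 0.24, limma adjusted p = 0.169). Nop10, another core protein, read 13.39 and 13.49 in ascites, against 12.88, 12.96 and 13.37 in FBS (change 0.37, SE 0.17, adjusted p = 0.298). In both cases the groups were separate with FBS replicate 3 just under the lower ascites array. Nolc1, a chaperone of snoRNPs, read 10.71 and 11.26 in ascites, against 9.82, 10.02 and 10.92 in FBS, and the groups overlapped through FBS replicate 3 (change 0.73, SE 0.40, adjusted p = 0.375). Nhp2 overlapped too (change 0.36). Dkc1, the pseudouridine synthase of these particles, had no probe set named for it in the annotation used and was not analysed here.

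Of the 6 genes of RNA polymerase I and ribosomal DNA transcription, 0 passed, and 4 did without FBS replicate 3. Polr1c, a subunit shared with RNA polymerase III, read 10.41 and 10.32 in ascites, against 10.00, 9.88 and 10.05 in FBS. The groups were separate and FBS replicate 3 was within 0.2 of the other FBS arrays (change 0.39, SE 0.08, limma adjusted p = 0.0677). Polr1a, the largest subunit, read 9.50 and 9.88 in ascites, against 8.61, 8.62 and 9.39 in FBS (change 0.82, SE 0.31, adjusted p = 0.209). Tcof1, treacle, a cofactor of ribosomal DNA transcription, read 9.01 and 9.32 in ascites, against 8.37, 8.46 and 9.19 in FBS, where FBS replicate 3 fell between the ascites arrays (change 0.49, SE 0.30, adjusted p = 0.411). The subunit genes Polr1b and Polr1e differed by 0.47 and 0.30, with FBS replicate 3 between the ascites arrays for Polr1b and above both for Polr1e. Ubtf, the factor UBF that binds ribosomal DNA throughout the repeat, read 11.02 and 11.03 in ascites, against 11.02, 11.05 and 10.90 in FBS. It was the only member that did not separate ascites from FBS replicates 1 and 2, and its 95% interval was -0.15 to 0.22. Its other, dimmer probe set changed by 0.56 (adjusted p over probe sets 0.0716), so the probe sets of Ubtf disagreed.

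**Figure D3:**
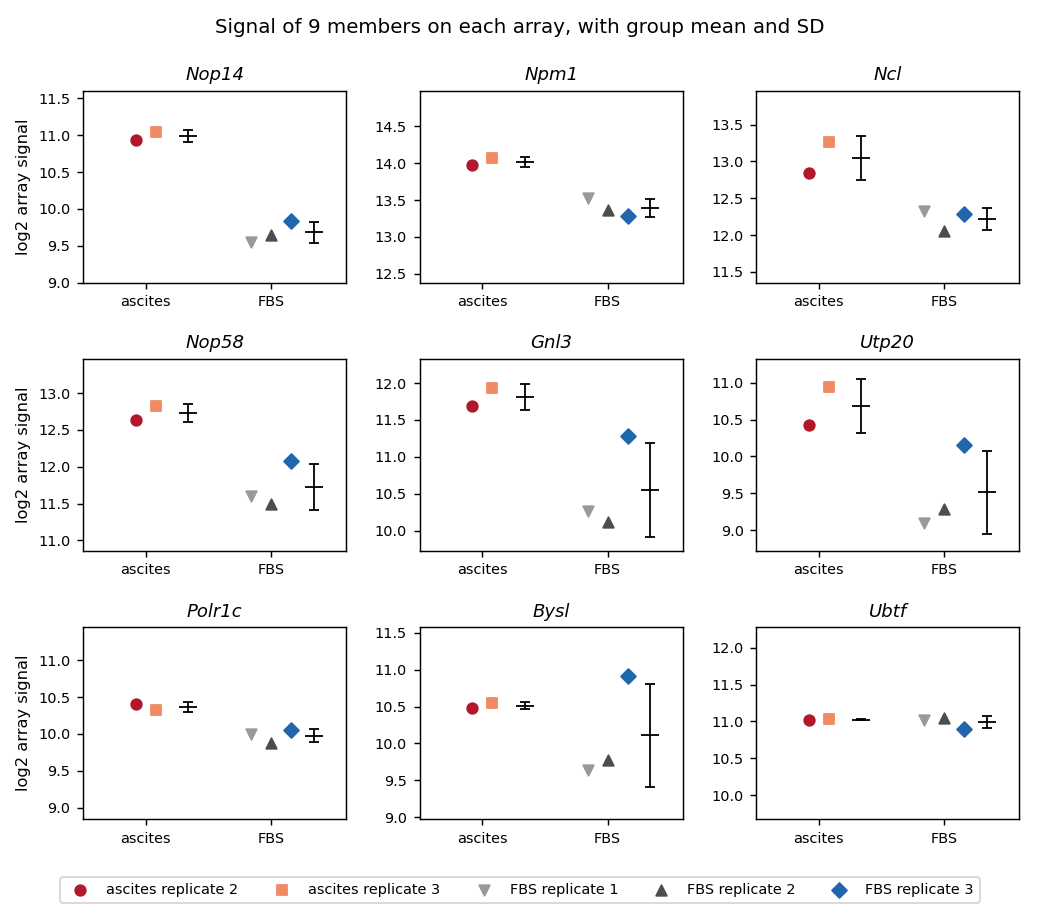
Log2 array signal of 9 members on each array, ascites left and FBS right in each panel, with the group mean and SD as a black bar beside the points (n = 2 and n = 3). The vertical axes span the same number of log2 units but start at different levels. On the probe sets used, FBS replicate 3 (blue diamond) lies with the other FBS arrays for Nop14, Npm1, Ncl and Polr1c and above the ascites arrays for Bysl.

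The large subunit factors gave 0 calls among 12 measured members, and 9 without FBS replicate 3. Gnl3, nucleostemin, a GTP-binding nucleolar protein found in stem and tumour cells, read 11.69 and 11.94 in ascites, against 10.27, 10.11 and 11.28 in FBS. Its groups were separate, and the difference within FBS, 1.09 between replicate 3 and the mean of the others, was close to that between the groups (2.40-fold, change 1.26, SE 0.40, limma adjusted p = 0.159). Rrs1, which acts early in large subunit assembly, read 11.58 and 11.78 in ascites, against 10.52, 10.38 and 11.22 in FBS (change 0.97, SE 0.29, adjusted p = 0.14). Nop16 read 10.03 and 10.04 in ascites, against 8.84, 8.81 and 9.62 in FBS (change 0.95, SE 0.29, adjusted p = 0.148). These genes kept the groups apart, with FBS replicate 3 the highest FBS array each time.

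The complex of Pes1, Bop1 and Wdr12 is needed for cutting of the precursor RNA, and 0 of the 3 passed. Wdr12 read 10.79 and 11.05 in ascites, against 9.44, 9.53 and 10.45 in FBS (change 1.11, SE 0.36, limma adjusted p = 0.162). Pes1 differed by 0.41, with FBS replicate 3 between the ascites arrays. On the other, dimmer probe set of Pes1, FBS replicate 3 was the lowest array, at 8.04 (change 0.49). Bop1 read 10.55 and 10.69 in ascites, against 10.28, 10.34 and 10.96 in FBS, so FBS replicate 3 was the highest array, and the 95% interval of its change was -0.56 to 0.75. Whether the changes of the complex members differ from each other was not tested. The RNA helicase genes Ddx18 and Ddx56 differed by 0.54 and 0.21, the methyltransferase gene Nop2 by 0.77, Ebna1bp2 by 0.52 and Rrp1b by 0.60. The GTPase gene Gnl2 had the smallest change of all members over the 5 arrays (0.02, 95% interval -0.48 to 0.52). Members named beyond the fixed rule, such as Rrp12, Bysl, Ubtf, Wdr12, Bop1 and Gnl2, were chosen after their values were seen.

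Other probe sets were available for 23 of the 37 members. All 31 of them had a higher mean in ascites, with a median change of 0.50, and 0 passed limma's threshold over all probe sets. Of these, 18 changed by an amount within 0.3 of the probe set used. A second probe set of Wdr12 changed by 1.86, a second of Nolc1 by 1.31, and a further probe set of Ncl by 1.26, each more than the probe set used. Others changed less than the probe set used, among them 0.17 and 0.42 for Polr1a, 0.06 for Ebna1bp2, 0.39 for Nop16, 0.10 for Imp4 and 0.27 for Rrp1b. The remaining probe sets of Ncl changed by 0.57 and 0.55, less than the one used. The place of FBS replicate 3 also depended on the probe set. It lay below both ascites arrays on the other probe sets of Bysl, Pes1, Nolc1 and Gnl2, but not on those used. The reverse held elsewhere. For Ddx21, Ncl and Polr1a it lay below both on the probe set used. On the other of Ddx21 it lay above both, and on a further one of Ncl and the others of Polr1a between them. These genes were chosen after their values were seen. Probe sets of a gene share the same RNA extracts and are not replicates.

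To show sequence beside these changes, promoters of the members were taken from RefSeq (build GRCm38.p6), as windows of 250 bases before and 50 bases from the start site on. Windows were found for 30 of the 37 members. The E-box CACGTG is the palindrome that MYC and its partner MAX can bind. It occurred in windows of 6 members (20%), beside 10.8% of the 9888 tested genes with a window. A gene could have several windows, 38 for the 30 members, and was counted where any of them matched. That share per gene is not comparable with the share per window. Of all 32851 windows counted singly, 7.15% held the E-box. The 6 members with it changed by 0.41 to 1.17 (median 0.76), and the 24 without it by 0.04 to 1.31 (median 0.57). The ETS core motif CCGGAAG, searched on both strands, occurred for 8 of the 30 members (26.7%), beside 16.3% of tested genes. The 8 members with it changed by 0.30 to 0.77 (median 0.63), and the 22 without it by 0.04 to 1.31 (median 0.69). By their letters, an E-box match cannot overlap an ETS match, while ETS matches on opposite strands can overlap each other. A match of letters describes the window and does not show that a factor binds there. The stretches around the 6 E-boxes are given 5′ to 3′ on the strand of the gene, with the E-box in capitals, since they are the letters that these 6 promoters have in common.
Utp20, chr10:88826765-88826804, minus strand, E-box from base 38 of the transcript: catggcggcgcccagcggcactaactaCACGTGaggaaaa
Wdr43, chr17:71616205-71616264, plus strand, from base 18 of the transcript: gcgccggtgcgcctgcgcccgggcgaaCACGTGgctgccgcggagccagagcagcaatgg
Nop2, chr6:125131796-125131855, plus strand, from 60 bases before the start site: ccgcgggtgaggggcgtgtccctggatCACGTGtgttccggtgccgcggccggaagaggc
Ltv1, chr10:13193088-13193136, minus strand, from base 29 of the transcript: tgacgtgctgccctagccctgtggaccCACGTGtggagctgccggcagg
Imp4, chr1:34439681-34439740, plus strand, from 121 bases before the start site: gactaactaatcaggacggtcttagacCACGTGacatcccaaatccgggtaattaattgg
Pes1, chr11:3963950-3964009, plus strand, from base 3 of the transcript: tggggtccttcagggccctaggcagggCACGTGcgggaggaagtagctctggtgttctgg

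The window of Nop14, the called member with the larger change, held neither motif. It is shown whole for comparison, 5′ to 3′ on the minus strand at chr5:34660099-34660398, with no capitals because nothing was matched.
Nop14: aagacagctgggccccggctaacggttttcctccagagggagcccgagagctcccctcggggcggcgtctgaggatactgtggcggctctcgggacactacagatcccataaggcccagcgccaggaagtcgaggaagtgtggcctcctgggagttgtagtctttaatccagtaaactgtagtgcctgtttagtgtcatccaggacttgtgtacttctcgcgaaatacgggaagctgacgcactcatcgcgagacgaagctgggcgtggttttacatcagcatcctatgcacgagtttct

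The members were set beside other genes of ribosome production. Of 76 other ribosome assembly factors, 67 were measured. Their means were higher in ascites for 62 and lower for 5, with a median change of 0.57. In this list 4 rose and 0 fell (5.97% risen, beside 2.69% of all genes). Esf1, a nucleolar factor of ribosomal RNA processing, read 11.58 and 11.83 in ascites, against 10.41, 10.27 and 10.60 in FBS (2.43-fold, limma adjusted p = 0.0254). Lsg1, a GTPase that acts on the large subunit in the cytoplasm, rose 1.86-fold (adjusted p = 0.049), and Nsa2, a large subunit factor, rose 1.59-fold (0.045). The remaining one was the helicase gene Ddx52 (1.41-fold, adjusted p = 0.0455), named because the count is small. FBS replicate 3 lay above the mean of FBS replicates 1 and 2 by a median of 0.42 in this list. Without that array 34 of the 67 rose (50.7%), beside 9.17% of all genes.

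Transcripts that host snoRNAs in their introns were measured for 5 of 10 listed. All 5 had both ascites arrays above all FBS arrays, beside 18.6% of all genes, and 3 rose, beside 2.69%. Snhg1 read 13.76 and 13.62 in ascites, against 12.95, 12.82 and 12.87 in FBS (1.75-fold, limma adjusted p = 0.0218). Snhg8 read 12.40 and 12.28 in ascites, against 11.25, 11.35 and 11.60 in FBS (1.92-fold, adjusted p = 0.0378), and Snhg6 rose 1.48-fold (0.0383). FBS replicate 3 lay above both other FBS arrays for 2 of the 5, Snhg8 and Snhg5. Its difference from their mean ranged from -0.46 for Gas5 to 0.30 for Snhg8. The median change of the 5 was 0.81 with all arrays and 0.81 without FBS replicate 3. The array reads the host transcript and not the snoRNA.

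Cytosolic ribosomal protein genes had a median change of 0.09 over 43 measured of 79 listed, and 1 rose (2.33%, beside 2.69% of all genes). That was Rps6 (1.57-fold, limma adjusted p = 0.0459), which read 11.88 and 11.73 in ascites, against 11.22, 11.23 and 11.01 in FBS. The median FBS signal of the list was 14.3, near the upper end of the scale, where the highest signal of any probe set was 15.38. Whether this limits the size of change that the arrays can show was not tested. Genes dimmer than Rps6 differed: Rpl27a, Rps25, Rpl12, Rpl37 and Rpl14 changed by 0.64, 0.55, 0.36, 0.35 and 0.285, but Rps27 and Rpl39 by -0.03 and -0.035. None of these passed limma's threshold, and they were chosen after their values were seen. FBS replicate 3 read 11.52 for Rps25, level with the lower ascites array, and 9.39 for Rpl12, above both. Mitochondrial ribosomal protein genes had a median change of 0.14 over 74 genes, and 4 rose (5.41%, beside 2.69% of all genes). The largest change among those 4 was that of Mrps31 (2.07-fold, adjusted p = 0.0159). Mrpl2 rose by 0.72 and Mrpl23 by 0.68 on the log2 scale, and Mrps17, named because the count is small, rose 1.43-fold. In that list FBS replicate 3 was above both other FBS arrays for 93.2% of genes, and the median against FBS replicate 3 alone was -0.07.

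Other parts of the RNA polymerase I machinery had a median change of 0.34 over 10 genes, of which 1 rose, Polr2h, a subunit shared by the nuclear RNA polymerases (1.59-fold, limma adjusted p = 0.0459). RNA polymerase III subunits had a median of 0.23 over 9 genes and RNA exosome subunits of 0.24 over 10, and 0 rose in either list (1 and 3 at an unadjusted p below 0.05). The smallest p in these lists were those of Polr3a (change 0.76, adjusted p = 0.186) and Exosc1 (change 1.03, adjusted p = 0.0636). Without FBS replicate 3, limma called 8 cytosolic (18.6%) and 22 mitochondrial (29.7%) ribosomal protein genes risen and 1 mitochondrial one fallen, Mrpl14. Of all genes, 9.17% rose and 10.9% fell in that fit. The same fit called 5 genes of the other RNA polymerase I machinery risen (Polr1d, Polr2e, Polr2h, Rrn3 and Ttf1) and 4 RNA polymerase III subunits (Polr3a, Polr3d, Polr3e and Polr3f). The exosome list gave 3 (Exosc1, Exosc9 and Mtrex) and the snoRNA host list 4, with Gas5 added to those above. These names were given because the counts are small, after the values were seen. None of the differences between lists was tested.

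**Figure D4:**
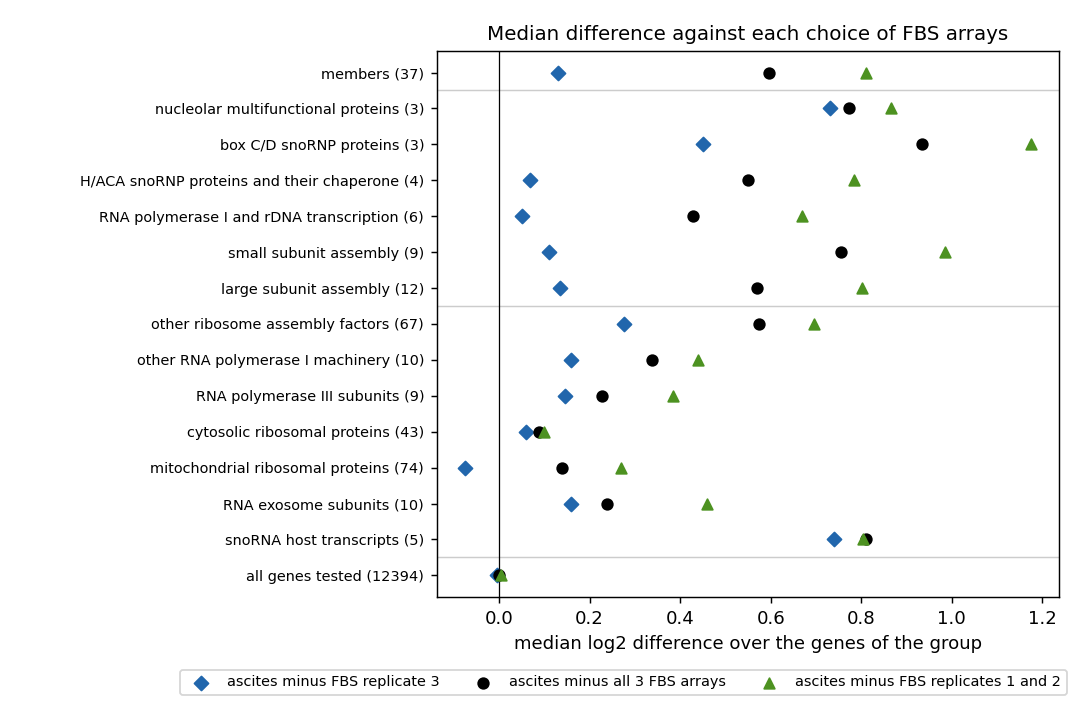
Median log2 difference over the genes of each group, with the number measured in brackets, for ascites minus FBS replicate 3 alone (blue diamonds), minus all 3 FBS arrays (black circles) and minus FBS replicates 1 and 2 (green triangles). The members lie at 0.13, 0.60 and 0.81, snoRNA host transcripts at 0.74, 0.81 and 0.81, cytosolic ribosomal proteins at 0.06, 0.09 and 0.10, and all genes near 0.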

How the data were processed

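Total RNA of ID8 cells was hybridised to Affymetrix mouse arrays, 2 from ascites culture and 3 from FBS culture. Per the submitters' processing notes the authors used Affymetrix Expression Console; no label read here states its version or algorithm. The deposited values were taken as log2 signals, judged from their range, with array medians of 7.4 to 7.47, and were used without further normalization. With medians this close, shifts shared by all genes are invisible.

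Of 22690 probe sets, 20393 were annotated to 1 gene and 691 to several. The probe set with the highest mean represented each of 12394 genes, with no filter on dim genes. The test was limma 3.58.1 (R 4.3.3; lmFit, then eBayes), two-sided and without covariates, on 3 residual degrees of freedom, with p adjusted by Benjamini-Hochberg with a threshold of 0.05, and the calculation was tested on simulated data. The number of arrays limits the precision. Members and lists were chosen with earlier results of these data known. Members named with values were those that rose, Ncl, Npm1 and Fbl, and in each role the 3 with the smallest p and the largest change. In other lists they were up to 3 that passed, or the smallest p. Alternatives covered arrays left out, normalization, weights, variance trend, dim genes, probe sets and a replicate block.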

Additional observations from a re-analysis of the deposited data

How the results depend on the processing

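The median change of the members kept its direction under all alternatives run, between 0.48 and 0.81, and that of the other ribosome assembly factors between 0.45 and 0.70. The counts of calls did not hold. Leaving out 1 array gave 0 to 2494 changed genes in place of 654, 0 to 24 members risen in place of 2, and 0 to 34 other assembly factors risen in place of 4, each highest without FBS replicate 3. A lone ascites array was assumed to vary like the FBS arrays. With FBS replicates 1 and 2 averaged as 1 sample, limma called 0 genes, 0 members and 0 other factors (2128, 5 and 21 at an unadjusted p below 0.05). With the replicate block it also called 0 of each (1892, 13 and 29). The labels name no shared batch. Between the groups, the difference of replicate 3 from replicate 2 correlated at r = 0.04 over genes. That value rests on a single difference in each group, so it cannot decide whether replicate numbers mark pairs. Array weights, which gave FBS replicate 3 a weight of 0.186, called 2612 genes, 24 members and 40 other factors. Averaging probe sets left 1 member risen, as Npm1 then had an adjusted p of 0.0606. Other factors risen numbered 8 with quantile normalization, 7 with arrays centred on their medians, 1 with a variance trend and 9 with the lowest 25% of genes left out. The cause of these shifts was not tested. Small changes turned direction: Bop1 was at -0.03 with the block and -0.015 with FBS replicates 1 and 2 averaged, Gnl2 at -0.095 and -0.065, and Ubtf at -0.00754 with array weights. Leaving out 1 array gave -0.03 to 0.31 for Bop1, -0.095 to 0.18 for Gnl2 and -0.01 to 0.065 for Ubtf. Depth is not defined for these arrays, and no detection call was used.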

Other observations

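The large subunit factor Mrto4 was left out of the comparison because its probe set is annotated to 3 genes, Mrto4 and 2 pseudogenes. That probe set read 11.21 and 11.22 in ascites, against 10.41, 10.26 and 11.23 in FBS, so FBS replicate 3 was level with the ascites arrays. The change was 0.58 (SE 0.33, limma adjusted p over all probe sets 0.397). Nob1, the nuclease that makes the last cut of small subunit RNA, was not analysed here, since the annotation used named no probe set for it.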
